A study of Mus musculus with 6 samples.

Results

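The genes described here encode the proteins of the mitochondrial ribosome whose symbols begin with Mrps (mitochondrial ribosomal protein, small subunit) or Mrpl (large subunit) followed by a number. They were chosen by symbol alone, and 77 of the 14912 genes in the deposited table met the rule, 29 with Mrps and 48 with Mrpl symbols. RNA was sequenced from 3 midkine-treated and 3 control samples of bone marrow cells from wild-type C57BL/6J mice. All 6 cultures received FLT3LG at 50 ng/ml, a cytokine under which marrow progenitors become dendritic cells, and medium with FLT3LG was renewed on day 7. The midkine samples then had 10 ng/ml of recombinant human midkine, a secreted growth factor that binds heparin, for the last 2 days, and the control samples had none. The labels call the cells bone marrow derived dendritic cells and name no sort, so each library is taken here as a whole culture. They do not say whether the 3 samples of a group came from separate mice or cultures, so the p-values rest on a spread that may be technical only.

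The mitochondrial ribosome translates the few membrane proteins of the respiratory chain and ATP synthase that mitochondrial DNA encodes. Its RNA is made inside the organelle, whereas every one of its proteins is encoded in the nucleus, made in the cytosol and imported. The small subunit binds the messenger RNA and reads its codons, and the large subunit forms the peptide bond. Many of its proteins descend from bacterial ribosomal proteins, while others exist only in mitochondrial ribosomes.

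Libraries held 5685055 to 6453768 reads with midkine and 5089338 to 5532055 in control. The kit reads the 3' end of each transcript, and each value is a gene's reads scaled by the size factor of its library, called a normalised value below. Mitochondrial ribosomal RNA took 18.1% to 20.9% of reads in midkine libraries and 9.33% to 9.86% in control libraries. Of the 6 defining dendritic cell markers all were detected in every library. Itgax and H2-Ab1 rose (log2 fold changes 0.83 and 0.27), Zbtb46 and Batf3 fell (-0.47 and -0.34), and Flt3 (-0.11) and Cd74 (0.17) did not pass the test.

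In midkine cultures, 6 of the 77 mitoribosomal protein genes were higher and 16 were lower at an adjusted p under 0.05 (limma, Benjamini-Hochberg over 11844 genes). These are 7.79% and 20.8% of the members. Over all genes tested, 42.7% passed, 20.9% higher and 21.8% lower, so the share of members that fell was near the background and the share that rose was below it. All 77 members passed the filter on low values, a mean of at least 10. The median log2 fold change of the members was -0.17, against -0.01 over all genes tested, and 55 of the 77 were negative. Members ran between -0.69 for Mrpl36 and 0.47 for Mrpl1, and none reached a 2-fold change. The 3 midkine values lay wholly above the 3 control values for 7 members, against 25.1% of all genes, and wholly below for 24, against 26.2% of all genes.

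The number of members called depended on how libraries were scaled. Scaling to total reads, which counts the ribosomal RNA, shifted the median of all genes to -0.27 and gave 0 members higher and 45 lower. Scaling to total reads without ribosomal RNA gave a median of -0.09 over all genes, with 2 members higher and 26 lower. Without control replicate 2, 3 members were higher and 10 lower, and without control replicate 3, 3 were higher and 15 lower. The medians of both subunits stayed negative and below that of all genes in each of these.

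**Figure D1:**
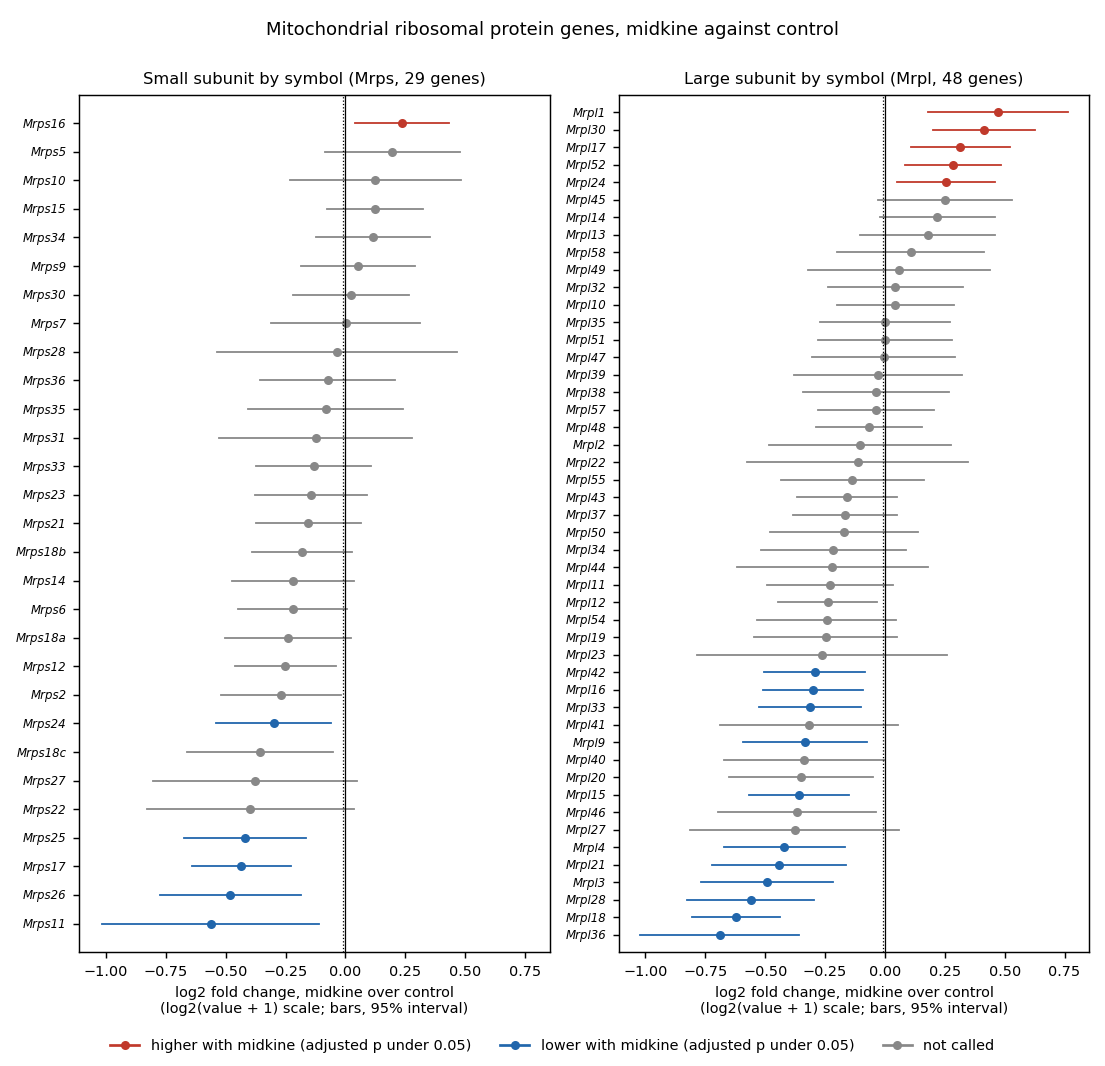
Log2 fold change (midkine over control) of each of the 77 members with its 95% confidence interval, on the log2(normalised value + 1) scale, ordered by size within each subunit; colour shows the call by limma and the dotted line the median of all genes tested (-0.01). The members run between -0.69 and 0.47, with 55 of 77 below 0. Of the members called higher, Mrpl24 and Mrps16 turn negative under scaling to total reads.

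Promoter sequence is shown for 4 members, 2 called higher and 2 called lower, because each holds a motif of a factor known to act on genes for mitochondrial proteins. Each stretch covers 150 bases before to 30 after the gene start in RefSeq (build GRCm38.p6), on the gene's strand. Capitals mark the motif of nuclear respiratory factor 1 (NRF1), which is GCGC and TGCGC with any 1 base (N) between them, CCGGAA, the core of the ETS family, and AAGATGGC, the motif of YY1, found on either strand; the motifs were allowed to overlap. Mrpl30 (higher, chr1:37890327-37890506, plus strand) holds an NRF1 and an ETS match. Mrpl17 (higher, chr7:105811058-105811237, minus strand) holds an NRF1 match. Mrpl18 (lower, chr17:12916062-12916241, minus strand) holds an ETS match and Mrpl36 (lower, chr13:73330859-73331038, plus strand) a YY1 match.
Mrpl30: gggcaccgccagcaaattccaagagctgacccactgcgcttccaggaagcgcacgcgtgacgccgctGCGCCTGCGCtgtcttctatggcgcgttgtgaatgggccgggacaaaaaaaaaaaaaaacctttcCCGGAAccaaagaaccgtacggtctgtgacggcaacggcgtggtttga
Mrpl17: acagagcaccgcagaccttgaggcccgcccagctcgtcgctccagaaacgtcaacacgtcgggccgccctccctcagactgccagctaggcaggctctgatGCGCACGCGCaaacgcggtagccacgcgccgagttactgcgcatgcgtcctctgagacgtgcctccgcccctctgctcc
Mrpl18: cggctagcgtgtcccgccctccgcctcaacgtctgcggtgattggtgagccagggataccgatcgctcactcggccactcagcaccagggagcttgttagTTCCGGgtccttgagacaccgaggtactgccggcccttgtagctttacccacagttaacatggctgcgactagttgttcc
Mrpl36: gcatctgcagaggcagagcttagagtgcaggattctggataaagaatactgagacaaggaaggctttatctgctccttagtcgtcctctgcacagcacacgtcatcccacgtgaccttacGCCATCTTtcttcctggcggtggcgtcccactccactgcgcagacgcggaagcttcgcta
A match is a description, not a site or a cause.

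RefSeq windows covering 250 bases before to 50 after the start were matched by symbol for 68 of the 77 members. At least 1 of the 3 motifs was present in 52 of the 68 (76.5%), against 43.6% of tested genes with a window and 22.2% of all genes with one. The ETS core was in 39 members (57.4%), against 33.2% of tested genes and 16.7% of all genes. The YY1 motif was in 12 members (17.6%), against 5.59% of tested genes and 3.19% of all genes. The NRF1 motif was in 13 members (19.1%), against 12.2% of tested genes and 5.19% of all genes. Split by response, the ETS core was in 5 of the 6 members called higher, 6 of the 14 called lower that had a window and 28 of the 48 not called. The YY1 motif was in 0 of 6, 4 of 14 and 8 of 48, and the NRF1 motif in 2 of 6, 2 of 14 and 9 of 48, in the same order. These counts were not tested.

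Among large subunit genes, 5 rose, 11 fell and 32 of the 48 did not pass the test, with a median log2 fold change of -0.17. The rises were 10.4% and the falls 22.9% of the 48, against 20.9% and 21.8% of all genes tested. Mrpl18, a protein of the central protuberance of the large subunit, had normalised values of 379.7, 354 and 339 in midkine cultures, against 569, 556 and 527 in control cultures. All 3 midkine values lay below the lowest control value. It fell by 0.62 on the log2 scale (SE 0.09, adjusted p = 3.1e-06, limma), 1.54-fold lower with midkine, and this was the smallest adjusted p among the members. Mrpl36, the counterpart of the small bacterial protein L36, had 89.0, 59.6 and 60.5 in midkine cultures, against 106, 111 and 117 in control cultures. The groups did not overlap, although midkine replicate 1 lay nearer to control than the other two, and the log2 fold change was -0.69 (SE 0.16, adjusted p = 0.0012). Mrpl28 had 146, 173 and 168 with midkine, against 191, 266 and 272 in control, where control replicate 1 was the lowest of its group. Its log2 fold change was -0.56 (SE 0.13, adjusted p = 9.6e-04), 1.48-fold lower with midkine. Mrpl18 exons overlap those of Tcp1 on the other strand, and Mrpl36 those of Ndufs6. The sources used here do not say whether counting used strand, so reads of such pairs may not be told apart.

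Further large subunit genes fell by less. Mrpl3, whose bacterial counterpart reaches towards the peptidyl transferase centre, had 121, 172 and 167 with midkine, against 241, 187 and 217 in control (log2 fold change -0.49, adjusted p = 0.0045). Mrpl4, whose bacterial counterpart lines the exit tunnel, had 171, 137 and 143 with midkine, against 192, 227 and 187 in control (-0.42, adjusted p = 0.0074). Mrpl21 had 180.3, 116 and 160.4 with midkine, against 188, 209 and 216 in control (-0.44, adjusted p = 0.011). In these 3 genes the groups came close without overlapping. The calls were lost without midkine replicate 1 for Mrpl3 (-0.33), without control replicate 2 for Mrpl4 (-0.33) and without midkine replicate 2 for Mrpl21 (-0.26). Mrpl15 had 238, 213 and 213 with midkine, against 276, 285 and 289.7 in control (-0.36, adjusted p = 0.0059), and passed without any 1 library. Mrpl9 had 124, 108 and 133 with midkine, against 158, 144 and 158 in control (-0.33, adjusted p = 0.036). The Mrpl9 call was lost without midkine replicate 1 (-0.35), midkine replicate 2 (-0.25), control replicate 1 (-0.31) or control replicate 3 (-0.31).

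The smallest called falls in the large subunit were those of Mrpl33 (-0.31), Mrpl16 (-0.30) and Mrpl42 (-0.29). Mrpl33 and Mrpl16 have bacterial counterparts, that of Mrpl16 near the catalytic centre, and Mrpl42 has none. For Mrpl33 the call was lost without midkine replicate 2 (-0.18) or control replicate 2 (-0.30). For Mrpl16 it was lost without midkine replicate 1 (-0.24) or control replicate 2 (-0.29). For Mrpl42 it was lost without midkine replicate 1 (-0.29), midkine replicate 3 (-0.27) or control replicate 2 (-0.28). With the small subunit gene Mrps24 described below, these lie past the 12 falls of the naming rule and were chosen after their values were seen.

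Mrpl30, the counterpart of bacterial L30, had 436, 408 and 353 in midkine cultures, against 265, 321 and 311 in control cultures. It rose 1.33-fold (log2 0.41, SE 0.10, adjusted p = 0.0022), and its lowest midkine value lay above the highest control value. Mrpl1, whose bacterial counterpart forms the mobile stalk beside the exit site of transfer RNA, had 100.3, 116 and 117 with midkine, against 77.4, 77.4 and 84.4 in control. It rose 1.39-fold (log2 0.47, SE 0.14, adjusted p = 0.0090). Mrpl17 had 365, 366 and 353 with midkine, against 303, 316 and 255 in control (log2 0.31, adjusted p = 0.014), and lost the call without control replicate 3 (0.22), the lowest of its group. Mrpl52, a protein found only in mitochondrial ribosomes, had 383, 372 and 329.9 with midkine, against 294, 282 and 315 in control (log2 0.28, adjusted p = 0.022). Without midkine replicate 1 (0.24), midkine replicate 2 (0.26) or control replicate 2 (0.25) its call was lost. Mrpl24, at the mouth of the exit tunnel, had 309.9, 339 and 361 with midkine, against 304, 274 and 267 in control (log2 0.26, adjusted p = 0.041). Its call did not hold without midkine replicate 2 (0.25), midkine replicate 3 (0.20), control replicate 2 (0.24) or control replicate 3 (0.22), and its sign turned under scaling to total reads (log2 -0.0019).

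**Figure D2:**
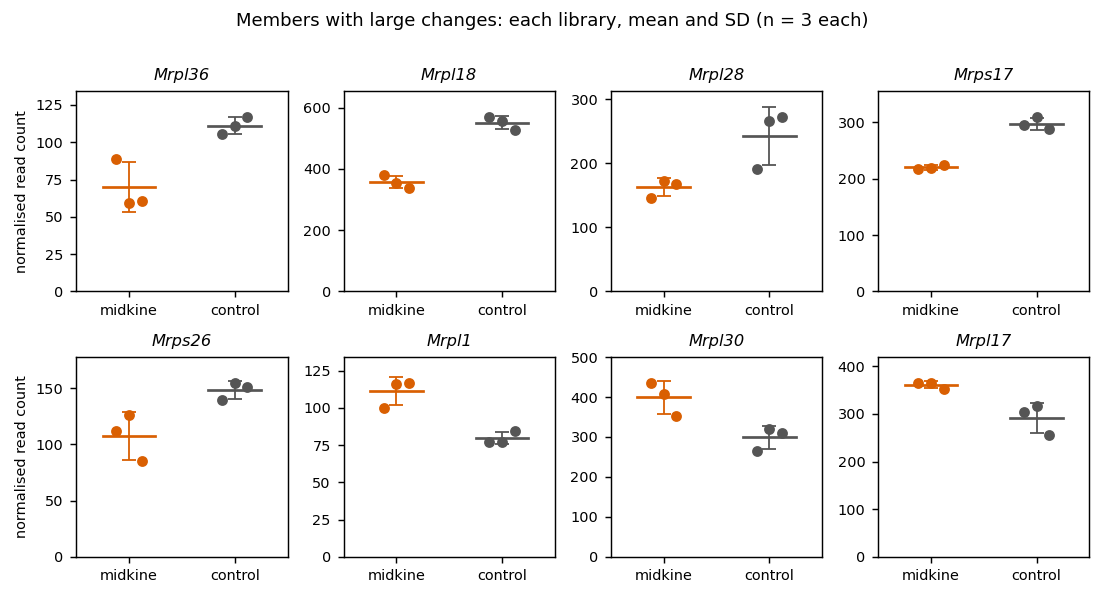
Normalised read count of 8 of the named members in each library (linear axes that start at 0), midkine to the left of control; each point is 1 of the 3 libraries of a group, the long line their mean and the whiskers the SD. Mrpl18 lies between 339 and 379.7 with midkine and between 527 and 569 in control, and Mrpl30 between 353 and 436 with midkine and between 265 and 321 in control.

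Functional parts of the large subunit were counted apart, beside the 42.7% of all genes tested that passed. Of the 3 stalk proteins, which recruit translation factors, none passed the test. Mrpl12 had 303, 268 and 322 with midkine, against 350.4, 373 and 328 in control, without overlap (log2 -0.24, adjusted p = 0.057). Mrpl11 was at -0.23 and Mrpl10 at 0.04. A list of 6 proteins at the mouth of the exit tunnel leaves out Mrpl4, which lies deeper in it and fell. Of these 6, Mrpl24 alone passed, and Mrpl45, the inner membrane anchor, had 124, 141 and 126 with midkine, against 115, 93.3 and 121 in control (log2 0.25, adjusted p = 0.14).

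Among small subunit genes, 1 rose, 5 fell and 23 of the 29 did not pass the test, with a median log2 fold change of -0.15. The rises were 3.45% and the falls 17.2% of the 29, against 20.9% and 21.8% of all genes tested. Mrps17, the counterpart of a bacterial protein that binds the small subunit RNA early in assembly, had 216, 218 and 225 in midkine cultures, against 295, 309 and 289 in control cultures. It fell by 0.43 on the log2 scale (SE 0.10, adjusted p = 9.5e-04), and the gap between the groups was wider than the spread within either. Mrps25, found only in mitochondrial ribosomes, had 116, 127 and 120.1 with midkine, against 178, 162 and 148 in control (log2 -0.42, SE 0.12, adjusted p = 0.0081). Both calls held without any 1 library. Mrps26, also restricted to mitochondrial ribosomes, had 112, 126 and 84.7 with midkine, against 139.8, 155 and 151 in control (log2 -0.48, adjusted p = 0.0082). Without midkine replicate 3, the lowest of its group, Mrps26 did not pass (-0.32).

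Mrps11, the counterpart of a bacterial protein on the platform of the small subunit, had 29.3, 28.4 and 24.2 with midkine, against 46.3, 41.0 and 35.4 in control. These values rest on 81 reads in the 3 midkine libraries together, against 127 in the 3 control libraries. The log2 fold change was -0.56 (SE 0.22, adjusted p = 0.042). When 1 library was left out, the call held only without control replicate 3. It was lost without midkine replicate 1 (-0.61), midkine replicate 2 (-0.59), midkine replicate 3 (-0.48), control replicate 1 (-0.47) or control replicate 2 (-0.56). Mrps24 had 145, 141 and 168 with midkine, against 184, 191 and 183 in control (log2 -0.30, adjusted p = 0.041). Its call was lost without midkine replicate 1 (-0.27), midkine replicate 2 (-0.25), control replicate 1 (-0.31), control replicate 2 (-0.28) or control replicate 3 (-0.31). Mrps16 was the small subunit gene that rose, with 355, 323 and 344 with midkine, against 276, 299 and 293 in control (log2 0.24, adjusted p = 0.0498). The call was lost without midkine replicate 1 (0.21), midkine replicate 3 (0.23), control replicate 1 (0.20), control replicate 2 (0.26) or control replicate 3 (0.24), and the sign turned under scaling to total reads (-0.023).

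Some abundant or well-known small subunit genes did not pass. Mrps12, whose bacterial counterpart guards the accuracy of decoding, had 294, 269 and 257 with midkine, against 292, 328 and 357 in control (log2 -0.25, adjusted p = 0.052). Mrps15 had 341, 324 and 364 with midkine, against 291, 337 and 318 in control (0.12, adjusted p = 0.32). Mrps21 had 318, 282 and 283 with midkine, against 285, 371 and 331 in control (-0.15, adjusted p = 0.25). In all 3 the groups overlapped. Mrps18a and Mrps30 carry small subunit symbols but are built into the large subunit, and their log2 fold changes were -0.24 and 0.02, neither past the threshold. Mrps36 is now known as a component of the 2-oxoglutarate dehydrogenase complex, and stood at -0.07 (adjusted p = 0.69).

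Summed over each subunit, values were lower with midkine. Summed normalised values of the 29 Mrps genes were 4593, 4560.0 and 4432 in midkine libraries, against 4789.6, 5072 and 4998 in control libraries, a change of -8.58% in the mean. Those of the 48 Mrpl genes were 7755, 7564 and 7456 with midkine, against 8144, 8457 and 8283 in control, a change of -8.48%. Every midkine sum lay below every control sum for both subunits. The ratio of the Mrps sum to the Mrpl sum was 0.597 ± 0.0056 with midkine and 0.597 ± 0.0080 in control (SD, n = 3 each). With Mrps18a and Mrps30 counted in the large subunit and Mrps36 left out, it was 0.520 ± 0.0037 with midkine and 0.522 ± 0.0077 in control, and the median log2 fold changes were -0.17 for both subunits. As a share of all reads, the members took 0.192% to 0.205% with midkine and 0.248% to 0.274% in control. With ribosomal RNA reads left out, the shares were 0.272% to 0.278% with midkine and 0.309% to 0.326% in control.

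**Figure D3:**
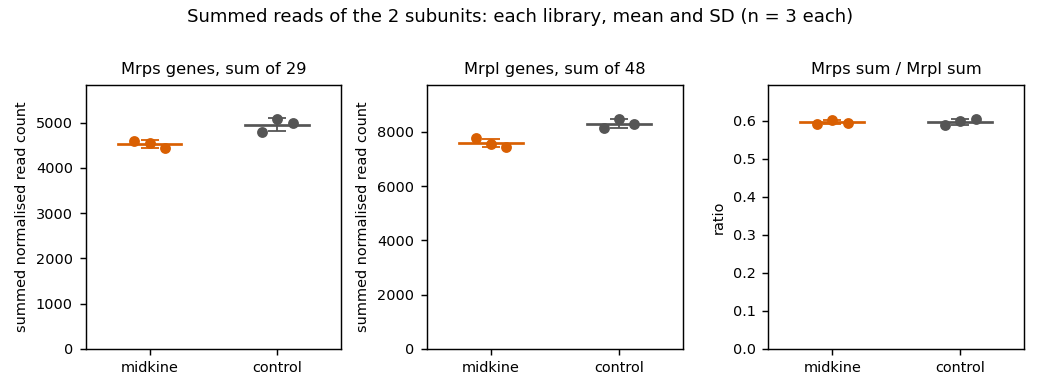
Summed normalised read counts of the Mrps genes and of the Mrpl genes, and the ratio of these sums, in each library (points, 3 per group; long lines are means and whiskers the SD; axes start at 0), midkine left of control. The midkine sums lie between 4432 and 4593 for Mrps and 7456 and 7755 for Mrpl, below all control sums, and the mean ratio is 0.597 in both groups.

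Members with a bacterial counterpart and those found only in mitochondria were counted apart. Of 45 with a counterpart, 5 rose and 13 fell, with a median log2 fold change of -0.22. Of 29 restricted to mitochondrial ribosomes, 1 rose and 3 fell, with a median of -0.14. With a counterpart, 11.1% rose and 28.9% fell, and without, 3.45% and 10.3%. Of all genes tested, 20.9% were higher and 21.8% lower. In the large subunit, 4 rose and 10 fell among the 29 with a counterpart, and 1 rose and 1 fell among the 19 without. In the small subunit, 1 rose and 3 fell among 16 with a counterpart, and 0 rose and 2 fell among 10 without. The median normalised value was 157 for genes with a counterpart and 104 for those without, and low values carry a larger error, so the counts of calls were taken at unequal precision. Mrps18a, Mrps30 and Mrps36 were in neither class, and the difference between the classes was not tested.

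Other proteins of the mitochondrial ribosome and of mitochondrial translation were counted by list. Calls came to 7.69% of assembly factors, 31.2% of translation factors and 17.6% of mitochondrial tRNA synthetases, against 42.7% of all genes tested. Median normalised values of these lists were 54.1, 60.0 and 55.1, against 113 over all genes tested. Low values carry a larger error, so these shares were taken at unequal precision. Of 5 ribosomal proteins with other symbols, Ptcd3, a pentatricopeptide repeat protein of the small subunit, had 129.6, 126 and 141 with midkine, against 186, 155 and 205 in control, and fell (log2 -0.45, adjusted p = 0.0056), though not without control replicate 3 (-0.36). The other four did not pass, among them Chchd1 (0.13). Of 26 assembly factors, 1 rose and 1 fell. Ngrn, needed for the large subunit RNA, had 73.2, 94.4 and 122 with midkine, against 63.3, 62.5 and 77.1 in control (log2 0.48, adjusted p = 0.027). Its groups overlapped, and the call was lost without midkine replicate 2 (0.48), midkine replicate 3 (0.30), control replicate 1 (0.44) or control replicate 2 (0.43). Mrm3, a methyltransferase of that RNA, fell (-0.79, adjusted p = 0.011), but not without midkine replicate 1 (-0.64) or control replicate 3 (-0.67). Mpv17l2 was at 0.11 and did not pass. Of 16 translation factors and related genes, 3 rose and 2 fell. Oxa1l, which inserts new proteins into the inner membrane beside the ribosome, had 192, 219.9 and 184 with midkine, against 124, 146 and 146 in control (log2 0.52, adjusted p = 0.0012). Its call held without any 1 library and was lost under scaling to total reads (0.26). The other four calls each depended on single libraries. Mrrf, the ribosome recycling factor, rose (0.62, adjusted p = 0.021), but not without midkine replicate 2 (0.44), midkine replicate 3 (0.63) or control replicate 1 (0.51). Gfm2, its partner, rose (0.37, adjusted p = 0.020), but not without midkine replicate 1 (0.32), midkine replicate 3 (0.31), control replicate 2 (0.36) or control replicate 3 (0.34). Tufm, the elongation factor that delivers transfer RNA, was called lower (-0.50, adjusted p = 0.033) with overlapping groups. It passed neither by edgeR nor by DESeq2, nor without midkine replicate 1 (-0.38), midkine replicate 3 (-0.37), control replicate 1 (-0.43), control replicate 2 (-0.54) or control replicate 3 (-0.53). Mtif3, an initiation factor, was called lower (-0.38, adjusted p = 0.042), and leaving out any 1 of the 6 libraries ended the call (-0.39 to -0.36), as did DESeq2.

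Of 17 mitochondrial aminoacyl-tRNA synthetases, 1 rose and 2 fell. Ears2, which charges glutamate, had 112, 104 and 92.8 with midkine, against 42.5, 40.1 and 45.9 in control, and rose 2.36-fold (log2 1.24, SE 0.16, adjusted p = 8.7e-07). Every midkine value was above the highest control value. It passed under each alternative run. Yars2, which charges tyrosine, was called lower (log2 -0.67, adjusted p = 0.029), but not by DESeq2, nor without midkine replicate 1 (-0.65), midkine replicate 2 (-0.54), control replicate 2 (-0.65) or control replicate 3 (-0.59). Hars2, which charges histidine, was called lower (-0.40, adjusted p = 0.030), but not by DESeq2, nor without midkine replicate 1 (-0.26), midkine replicate 3 (-0.40), control replicate 1 (-0.41) or control replicate 3 (-0.35). Lars2 did not pass (0.05). Among all genes tested 21.8% were lower, against 1 of 15 tested genes of mitochondrial DNA copying and expression (6.67%). This was the DNA polymerase Polg (-0.40, adjusted p = 0.039). That call was lost by DESeq2 and without midkine replicate 2 (-0.36), midkine replicate 3 (-0.41), control replicate 2 (-0.36) or control replicate 3 (-0.32). Lrpprc, which stabilises mitochondrial messenger RNA, stood at 0.01.

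Both ribosomal RNAs of the mitochondrion rose. mt-Rnr1, the RNA of the small subunit, had 311154, 235608 and 298354 with midkine, against 125689, 131424 and 131298 in control (log2 1.11, adjusted p = 1.2e-07). mt-Rnr2, that of the large subunit, had a log2 fold change of 1.35 (adjusted p = 1.2e-07). Both were higher in every midkine library than in any control library. Quantile normalization left no difference between the group means of mt-Rnr1, and kept mt-Rnr2 past the threshold. It gives equal ranks equal values in every library, so it cannot show a change in a gene that keeps its rank. Of 11 mitochondrially encoded messenger RNAs, 4 rose (36.4%) and 0 fell, with a median of 0.18. Among all genes tested, 20.9% were higher and 21.8% lower. The median turned to -0.08 with 2 higher and 4 lower under scaling to total reads. Quantile normalization gave 4 higher and 3 lower (median 0.07). Without midkine replicate 1 or control replicate 1, 1 was lower. The 4 that rose were mt-Nd6 (1.56), mt-Co1 (1.11), mt-Nd4 (0.43) and mt-Atp6 (0.36). Under scaling to total reads mt-Nd4 (0.17) and mt-Atp6 (0.10) did not pass, nor did mt-Nd4 under quantile normalization (0.07). The labels give RNA quality only over all samples, as a mean integrity number of 8 within a range of 5 to 10.

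Of 77 genes for proteins of the cytosolic ribosome, 60 rose and 1 fell, with a median log2 fold change of 0.30. These are 77.9% and 1.30%, against 20.9% higher and 21.8% lower among all genes tested. Under quantile normalization 31 rose and 4 fell (median 0.09), and under scaling to total reads 13 rose and 5 fell (median 0.04). The difference from the mitochondrial proteins was not tested.

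**Figure D4:**
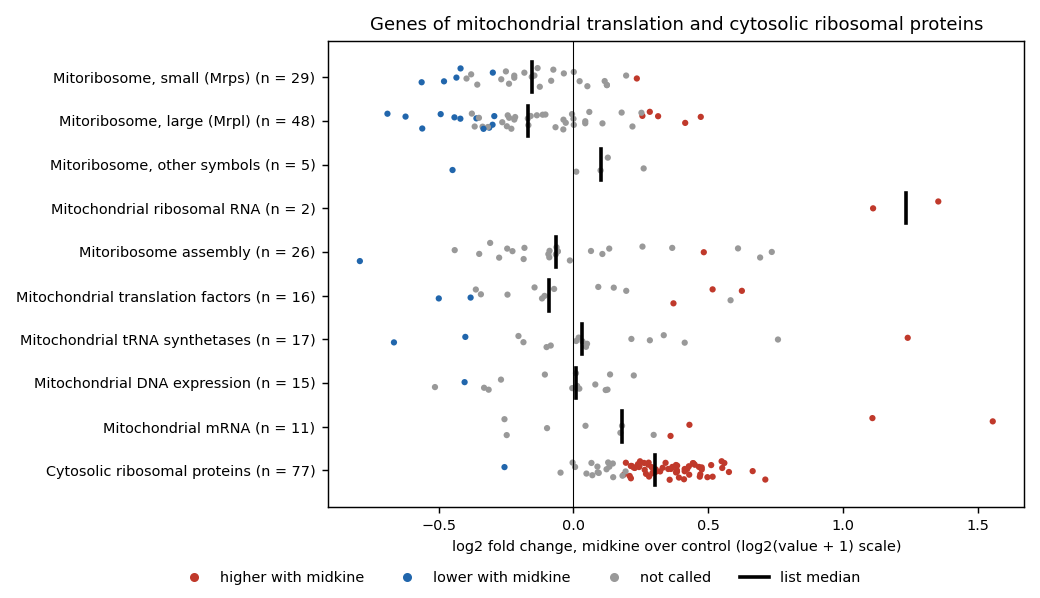
Log2 fold change (midkine over control) of each gene in the mitochondrial translation lists and in the cytosolic ribosomal protein list, 1 point per gene with the median of the list as a bar. The medians are -0.15 for Mrps and -0.17 for Mrpl genes, 0.18 for mitochondrial messenger RNAs (-0.08 under scaling to total reads) and 0.30 for cytosolic ribosomal proteins.

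Markers of cell types and of division moved with midkine too. Beside the counts below, 20.9% of all genes tested were higher and 21.8% lower. All 15 proliferation genes fell, with summed values of 5487 to 6627 in midkine libraries and 10963 to 11318 in control libraries. All 10 plasmacytoid dendritic cell genes fell (sums of 1754 to 1907 with midkine and 6653 to 6946 in control). Of 8 genes of type 1 dendritic cells, 7 fell and 1 rose (sums of 11256 to 12804 with midkine and 21867 to 25393 in control). Of 7 stromal genes, 6 rose and 1 fell, with sums of 24288 to 28634 in midkine libraries and 9352 to 11193 in control libraries. Of 9 macrophage genes, 3 rose and 3 fell (sums of 3213 to 3409.7 with midkine and 2957 to 4160.0 in control). Of 4 neutrophil genes that passed the filter, 3 fell, and the 8 listed summed to 38.5 to 69.9 with midkine and 533 to 659.6 in control. Elane was at 0 in all 3 midkine libraries. Of 4 B lymphoid genes that passed, 2 fell, the 7 in the table summed to 118 to 159 with midkine and 142 to 262 in control, and Vpreb1 was at 0 in all 3 midkine libraries. Fewer cells of a type and less RNA per cell cannot be told apart in these libraries. The part of any of these markers in the mitoribosomal values was not tested.

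The 77 genes are all annotated as protein-coding on GRCm38 (GENCODE vM21) and lie on 17 chromosomes. Another protein-coding gene starts on the opposite strand within 500 bases of the start of 25 of them (32.5%), against 1561 of 10839 tested protein-coding genes (14.4%). Exons of 20 members overlap those of a gene in the table on the other strand, and of 5 those of a gene on the same strand, Mrpl3 with Gm38077 and Mrps24 with Urgcp among them. A transcript of another gene matches part of the last 300 bases of 18 members at 95% identity or more over at least 100 bases, those of Mrpl21, Mrpl30, Mrpl36 and Mrpl42 among the called ones. For such members the counting settings decide how reads were split, and the sources used here do not give them.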

How the data were processed

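The 6 samples were grouped by title and treatment label. The authors deposited 1 table of signal values, which are gene counts scaled by library size factors. Per the submitters' processing notes, the tools were TopHat2 2.0.10, Bowtie 1.0.0, HTSeq, DESeq2, SAMtools 0.1.19 and FastQC 0.11.0 and the build GRCm38 (mm10), with no roles stated; the annotation and strand setting are not given. The value of 1 read was 0.916 to 1.13 by column, and division by it gave whole reads for 100% of values within 1e-06; in midkine replicate 3 that value, 1.00888, is close to 1. Median-ratio size factors recomputed from those reads matched its inverse. The labels name no molecular identifiers, so reads are not independent molecules. Of the columns, 0 were left unmapped, and 0 rows had no gene name.

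Genes with a mean of at least 10 were tested with limma 3.58.1 (R 4.3.3; lmFit, eBayes with a variance trend) on log2(value + 1), two-sided, with Benjamini-Hochberg adjustment over all genes tested and a threshold of 0.05. Fold changes on this scale understate those of low genes. edgeR 4.0.16 on the recovered reads called 5157 genes, limma 5059 and DESeq2 1.42.0 called 4088. In data simulated for midkine against control over 11844 genes, limma called 46 of 81 genes given a 1.5-fold change, 44 of 55 given 2-fold and 63 of 64 given 4-fold, with 10 false calls. Only these genes were changed, a far smaller share than the 42.7% called in the real data. The adjustment was therefore stricter in the simulation, and its recovery may differ from that in the real data. Subunit medians and sums are descriptions without a test. Replicates within a group differed by more than counting noise (chi-square per degree of freedom 2.42 to 11.7), so each counted as 1 sample.

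The members, the gene lists and the tests were chosen with earlier results of these data known. Named members were those called with groups that did not overlap, up to 12 in each direction, the 3 uncalled with the highest mean, and Mrps18a, Mrps30, Mrps36, Mrps12 and Mrpl12; of other lists, up to 3 called genes per direction and the most abundant. Mrpl53, listed for the large subunit, is not analysed here. Alternatives were pseudocounts of 0.5 and 5, other filters, TMM factors, quantile normalization, total-read scalings, no variance trend, a replicate block, and leaving out each library. Positions are from GENCODE vM21, promoters from RefSeq. Figures were drawn with matplotlib 3.10.9 and tables made with pandas 2.3.3, SciPy 1.17.1 and NumPy 2.4.6 in Python 3.11.15.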

Additional observations from a re-analysis of the deposited data

How the results depend on the processing

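The counts of 6 members higher and 16 lower moved by more than 1.5 times under total-read scaling (0 and 45), total-read scaling without ribosomal RNA (2 and 26) and no variance trend (2 and 10). Both also moved by more than that without control replicate 2 (3 and 10). Without control replicate 3 only the count higher did (3). Leaving out 1 library gave 3 to 5 higher and 10 to 18 lower. Under total reads the medians were -0.41 (small) and -0.42 (large), and without ribosomal RNA -0.23 and -0.25. Leaving out 1 library gave -0.21 to -0.11 (small) and -0.18 to -0.14 (large). Relative to the median of all genes in the same setting, the medians stayed between -0.20 and -0.10 (small) and between -0.18 and -0.13 (large). Among the called members, Mrpl24 (-0.0019) and Mrps16 (-0.023) reversed under total reads. This scaling shifts the median of all genes to -0.27. Of the 22 called members, 6 passed under each of the 19 alternatives run (Mrpl15, Mrpl18, Mrpl28, Mrpl36, Mrps17 and Mrps25), and Mrpl1 (0.22) and Mrpl30 (0.16) lost their calls under total reads alone. edgeR called 22 members, all shared with limma, and DESeq2 15, with Mrps11, Mrps16 and Mrps24 among those that lost the call. Deviations of same-numbered midkine and control libraries correlated at -0.0097, 0.029 and -0.058, which gave no sign that the numbers pair the samples. With 3 libraries per group this cannot exclude pairing. The replicate block gave 5 members higher and 20 lower, 21 of the 22 shared. Depth limits low members such as Mrps11, with 81 reads in midkine and 127 in control.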

Other observations

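The 25 members with a protein-coding gene starting on the opposite strand within 500 bases form 24 pairs, since Mrps11 and Mrpl46 are each other's neighbour. Of the neighbours that are not members, 21 passed the filter on low values, 4 of them higher and 5 lower with midkine. Over all genes tested, 20.9% were higher and 21.8% lower, so these counts were near the background. Both genes had fold changes of the same sign in 11 of the 22 pairs tested. In 1 pair both were called, in opposite directions. Mrpl30 averaged 399 ± 42.2 with midkine and 299 ± 29.5 in control (SD, n = 3 each), and its neighbour Mitd1, whose start lies 66 bases away, averaged 63.6 ± 5.17 with midkine and 87.1 ± 8.25 in control (log2 fold change -0.44, adjusted p = 0.024, limma). Mrpl36, which fell, starts 29 bases from Ndufs6, a subunit of respiratory complex I, which averaged 453 ± 27.9 with midkine and 459.7 ± 47.0 in control (log2 -0.02). That distance uses the GENCODE start of Mrpl36, chr13:73328513. The RefSeq stretch printed above (chr13:73330859-73331038) begins at another start and does not hold this one. Mrpl51, at a log2 fold change of 0.00, starts 100 bases from Ncapd2, a condensin subunit, which averaged 351 ± 32.8 with midkine and 603 ± 107 in control and fell (log2 -0.77, adjusted p = 2.3e-06). Mrps11 and Mrpl46, both members, start 412 bases apart and had log2 fold changes of -0.56 and -0.37, the second not past the threshold (adjusted p = 0.068).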
